A study of Mus musculus with 48 samples.

Results

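The 8 genes described here form the signalling axis through which bone and marrow cells call up osteoclasts, the cells that resorb bone. They were taken by symbol from the gene rows of the deposited count table: Tnfsf11, Tnfrsf11b, Tnfrsf11a, Csf1, Csf1r, Il34, Nfatc1 and Traf6. All 8 were found among the 32544 gene rows of the table, and all 8 passed the filter on low counts that left 16882 genes in the comparison of limbs. RNA was measured in the metaphysis of the tibia, the flared, trabecular end of the shaft, from male mice aged 19 weeks of 8 inbred strains. WSB/EiJ, PWK/PhJ and CAST/EiJ are wild-derived, and NZO/HlLtJ, C57BL/6J, NOD/ShiLtJ, A/J and 129S1/SvImJ are classical laboratory strains. In every mouse the left hindlimb had been held in a cast for 3 weeks (immobilized) and the uncast right limb of the same mouse served as control, so that side and cast cannot be told apart. The labels name no engineered allele, and there was no group of mice without a cast, so that any change in the control limb itself was not measured. The table holds 3 mice per strain and 48 libraries, but A/J control replicates 2 and 5 are nearly empty, with 2335 and 50 counts, and were left out. That leaves 46 libraries, 22 from control and 24 from immobilized limbs, and 22 mice with both limbs, of which A/J contributes 1.

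RANKL, the product of Tnfsf11, is made by osteocytes, osteoblasts, marrow stromal cells and lymphocytes and binds RANK (Tnfrsf11a) on osteoclast precursors of the monocyte lineage. OPG, the product of Tnfrsf11b, is a secreted decoy that binds RANKL and keeps it from RANK, which is why the ratio of RANKL to OPG is commonly read as a measure of the drive to form osteoclasts. RANK recruits the adaptor TRAF6 (Traf6), which activates NF-kB and MAP kinases and, with calcium signals, induces NFATc1 (Nfatc1), the transcription factor that switches on osteoclast genes. M-CSF (Csf1) and IL-34 (Il34) are alternative ligands of the M-CSF receptor (Csf1r), which keeps precursors alive and able to respond to RANKL.

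Library totals ranged from 5253408 to 14744056 counts, with a median of 7593532.5. Levels below are CPM (each count as a share of the library size, scaled by TMM), and levels compared between genes are divided by exonic length (CPM per kb). Every osteoclast, osteoblast and osteocyte marker fixed for the tissue was detected, although Calcr had no count in 1 library and Fgf23 in 3. Marker lists of other tissues varied widely between libraries. The summed level of 6 skeletal muscle genes ran from 16.4 CPM to 41920 CPM, and that of 5 erythroid genes from 482 CPM in NZO/HlLtJ control replicate 4 to 120400 CPM, with the next lowest library at 5280 CPM. In the mean over strains, 4 of the 6 muscle genes and 3 of 6 B cell genes were lower in the immobilized limb, and 5 of 8 osteoclast and 4 of 6 osteoblast genes were higher (edgeR FDR below 0.05). Of all genes tested, 4.58% were called higher and 2.86% lower. In bulk tissue, fewer cells of a type and less RNA per cell cannot be told apart, and this holds for every result below.

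On the GRCm38 build (mm10) with GENCODE M21, the ligand gene Tnfsf11 lies at chr14:78277445-78308043 on the minus strand and its decoy Tnfrsf11b at chr15:54250619-54278484, also on the minus strand. Tnfrsf11a lies at chr1:105780718-105847981 (plus strand), Traf6 at chr2:101678429-101701669 (plus strand) and Csf1 at chr3:107741048-107760469 (minus strand). None of these 5 overlaps another annotated gene. Il34 lies at chr8:110741829-110805924 (minus strand), and Csf1r at chr18:61100598-61132149 (plus strand) and Nfatc1 at chr18:80606205-80713071 (minus strand) share a chromosome. Csf1r overlaps Hmgxb3 on the opposite strand, Il34 overlaps Gm15894 and Gm15895, and Nfatc1 overlaps AC123818.1, all on the opposite strand. The strand setting of the counting is not given in the sources used here, so reads of these overlapping stretches could have been shared. Reads of the 7 strains other than C57BL/6J, the source of mm10, were assigned to the genome of another strain.

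Over all 46 libraries the receptor of the M-CSF arm was the most abundant transcript of the axis and the receptor of the RANKL arm the least. The median level of Csf1r was 41.5 CPM per kb. It was followed by Csf1 at 15.99 CPM per kb and Nfatc1 at 11.75 CPM per kb. Il34 (6.87 CPM per kb), Traf6 (5.69 CPM per kb) and Tnfrsf11b (5.12 CPM per kb) formed the middle of the order. Tnfsf11, at 3.02 CPM per kb, and Tnfrsf11a, at 2.31 CPM per kb, came last. The ranges of neighbours in this order overlapped in every case. Traf6 varied least between libraries, from 33.98 to 63.5 CPM, and Tnfrsf11b most, from 3.73 CPM in NZO/HlLtJ control replicate 5 to 88.4 CPM in WSB/EiJ control replicate 5. Raw counts ranged from 16 to 220 for Tnfsf11 and from 29 to 601 for Tnfrsf11b, so that counting error alone is appreciable for the ligand in the lowest libraries.

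The first comparison asked whether the axis differed between the cast and the contralateral limb, as a mean of the 8 strain effects. Nfatc1 was the only member past the threshold, and it was 1.21-fold higher in the immobilized limb. Tnfrsf11a, Traf6, Csf1r and Tnfsf11 had positive estimates that did not pass, while Tnfrsf11b and Csf1 had estimates close to 0 and Il34 a negative one that did not pass. Thus 1 of 8 members was called higher and 0 lower by edgeR's quasi-likelihood test with Benjamini-Hochberg adjustment over all genes (edgeR FDR below 0.05), where 4.58% of all genes tested were called higher and 2.86% lower, 7.43% in either direction. At an unadjusted p below 0.05 the count was 5 of 8, all with higher estimates, against 23.2% of all genes. DESeq2 called 2 members, both higher, where it called 10.8% of all genes, 5.89% higher. The median log2 change of the members was 0.20, beside 0.01 over all genes tested.

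Nfatc1 ranged from 50.5 to 150.6 CPM in control limbs, with a median of 78.9 CPM, and from 64.025 to 152.1 CPM in immobilized limbs, with a median of 101.4 CPM. The 2 limbs' ranges overlapped almost entirely, and the difference showed within mice: the immobilized limb was higher in 17 of 22. The mean change was 0.27 ± 0.08 on the log2 scale (SE; edgeR FDR = 0.048). The 8 osteoclast markers, with 5 called higher and a median log2 change of 0.72, moved with it, and their part was not tested. Of the highest control libraries, WSB/EiJ replicate 5 (150.6 CPM) and NZO/HlLtJ replicate 4 (137.2 CPM) stood above the immobilized limb of the same mouse. The FDR lay close to the threshold: the call was lost when any of 15 of the 22 mice was left out, with the highest edgeR FDR of 0.0863 without NZO/HlLtJ replicate 6, while the estimate stayed between 0.239 and 0.296. Without the 3 NOD/ShiLtJ mice the edgeR FDR was 0.212. With a skeletal muscle score as a covariate the estimate was 0.33 ± 0.11 (edgeR FDR = 0.0904).

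Upstream of NFATc1, the receptor Tnfrsf11a ranged from 7.75 to 52.3 CPM in control limbs (median 11.8 CPM) and from 10.3 to 45.6 CPM in immobilized limbs (median 17.6 CPM). The immobilized limb had the higher level in 18 of 22 mice, with a mean log2 change of 0.50 ± 0.16 (edgeR FDR = 0.0552). The highest control value belonged to NZO/HlLtJ replicate 4, the library with the least erythroid RNA. It also had the highest osteoclast marker sum of the control libraries, 6711 CPM. Without that mouse the change of Tnfrsf11a was 0.58 ± 0.13 (edgeR FDR = 0.00769), where 11.3% of all genes passed. For the adaptor Traf6, the control limbs lay between 33.98 and 50.4 CPM (median 42.3 CPM) and the immobilized limbs between 38.6 and 63.5 CPM (median 46.2 CPM). Its mean log2 change was 0.15 ± 0.05 (edgeR FDR = 0.0783; higher in 16 of 22 mice). These are the narrowest limits of the 8 genes, and the size of the change was small beside those of the receptors.

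The ligand Tnfsf11 lay between 2.43 and 12.8 CPM in control limbs (median 5.85 CPM) and between 4.93 and 25.8 CPM in immobilized limbs (median 8.02 CPM). The immobilized limb was higher in 16 of 22 mice, and the mean log2 change of 0.33 ± 0.16 did not pass (edgeR FDR = 0.215). A/J immobilized replicate 2, with 25.8 CPM, was the highest of all libraries, and its control partner is among the empty ones, so that it entered no within-mouse comparison. The decoy Tnfrsf11b showed the largest spread of all members and a mean log2 change of 0.00 ± 0.27 (edgeR FDR = 1), with 13 of 22 mice higher. The 2 receptor ligands of the other arm had mean log2 changes of -0.03 ± 0.11 for Csf1 (edgeR FDR = 0.953) and -0.21 ± 0.14 for Il34 (edgeR FDR = 0.399). Their receptor Csf1r had a mean log2 change of 0.24 ± 0.09 (edgeR FDR = 0.121; higher in 16 of 22 mice).

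A large part of the mean rested on the A/J mouse, which counts for a whole strain. In that pair Tnfsf11 was 11.1 CPM in the control and 5.74 CPM in the immobilized limb, Tnfrsf11b was 28.0 and 7.65 CPM, Csf1 was 108.2 and 55.3 CPM, and Il34 was 17.2 and 5.74 CPM. In the joint fit this pair had the lowest log2 change of the 8 strains for each of these 4 genes. The osteoblast markers of the same mouse summed to 49690 CPM in the control and 7752 CPM in the immobilized limb. No other control library exceeded 21430 CPM. The part of this difference in the changes of the 4 genes was not tested. Without this mouse 5 of 8 members passed the threshold in the mean of the remaining 7 strains, where 17.6% of all genes passed (2803 of 15948), against 7.43% with it. They were Tnfsf11 (0.51 ± 0.15; edgeR FDR = 0.0249), Tnfrsf11a (0.56 ± 0.15; edgeR FDR = 0.0151), Csf1r (0.28 ± 0.09; edgeR FDR = 0.038), Nfatc1 (0.28 ± 0.08; edgeR FDR = 0.0169) and Traf6 (0.19 ± 0.05; edgeR FDR = 0.0118). Without the mouse of NZO/HlLtJ replicate 4, Tnfrsf11a, Csf1r and Nfatc1 passed, where 11.3% of all genes did (1909 of 16827).

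**Figure D1:**
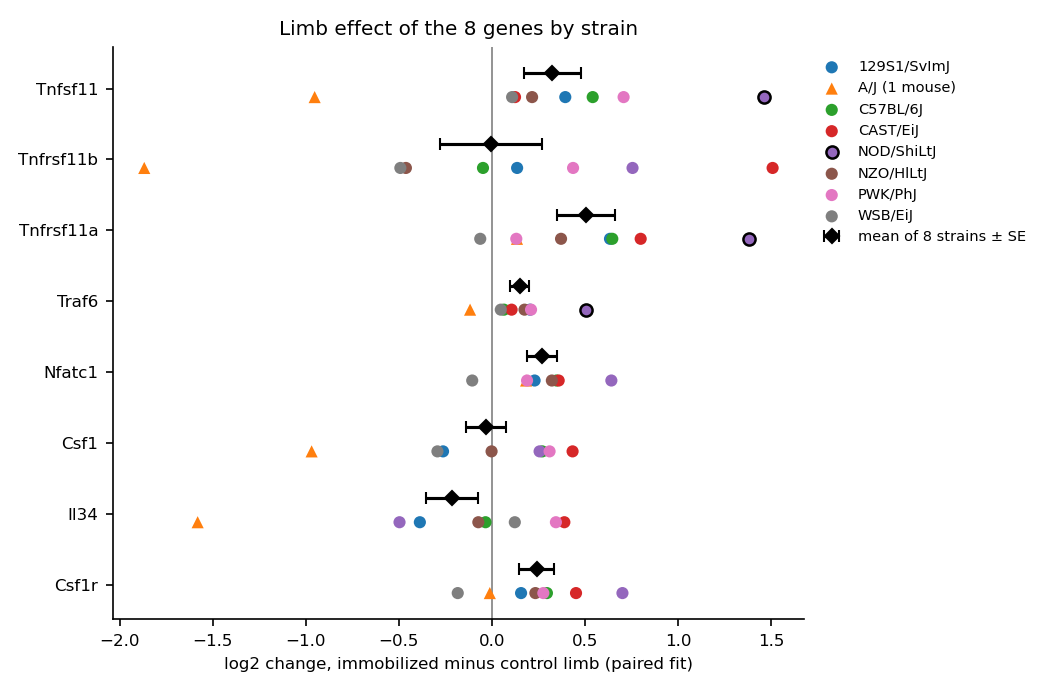
Change between limbs of each gene on a log2 scale (immobilized minus control, x axis) from the paired edgeR fit, as the mean of 8 strains with its SE (black diamonds) and per strain (coloured points; the triangle is the A/J pair, 1 mouse); a black outline marks an edgeR FDR below 0.05 in that strain. The 3 outlined points are Tnfsf11, Tnfrsf11a and Traf6 in NOD/ShiLtJ, and A/J lies lowest for Tnfsf11, Tnfrsf11b, Traf6, Csf1 and Il34.

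Taken strain by strain in the joint fit, calls among the members were found in NOD/ShiLtJ, the non-obese diabetic strain. There the ligand Tnfsf11, its receptor Tnfrsf11a and the adaptor Traf6 were all higher in the immobilized limb, by 2.76-fold, 2.60-fold and 1.42-fold. These are 3 of 8 members called higher and 0 lower, where 5.55% of all genes were called higher in that strain and 2.78% lower, and 5 of 8 had an unadjusted p below 0.05. DESeq2 called the same 3 together with Csf1r and Nfatc1, and its share over all genes in that strain is not given here. The median log2 change of the members was 0.67, beside -0.03 for all genes.

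In NOD/ShiLtJ control limbs Tnfsf11 was 5.62, 4.96 and 4.73 CPM in replicates 4, 5 and 6, and in the immobilized limbs of the same mice it was 17.9, 11.2 and 13.7 CPM. The limbs did not overlap, and the immobilized limb was higher by more than the spread within either limb, with means of 14.3 ± 3.39 and 5.10 ± 0.46 CPM (SD, n = 3). The log2 change was 1.46 ± 0.39 (SE; edgeR FDR = 0.0292). Its receptor Tnfrsf11a stood at 11.8, 9.67 and 8.63 CPM in the control limbs and at 40.3, 30.6 and 13.5 CPM in the immobilized limbs. Again no immobilized value fell among the controls, although replicate 6 lay near them. The log2 change of Tnfrsf11a was 1.38 ± 0.40 (edgeR FDR = 0.0393). Traf6 rose from 37.1, 33.98 and 39.0 CPM to 57.8, 44.6 and 54.9 CPM, a log2 change of 0.51 ± 0.13 (edgeR FDR = 0.0235). The groups were again separate, with a fold change well under that of the ligand and the receptor. The share of all genes whose limbs did not overlap in NOD/ShiLtJ was not counted.

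The other members in NOD/ShiLtJ did not pass. Csf1r had a log2 change of 0.70 ± 0.24 (edgeR FDR = 0.0758) and Nfatc1 one of 0.64 ± 0.20 (edgeR FDR = 0.0592), each higher in 3 of 3 mice. Tnfrsf11b changed by 0.76 ± 0.66 (edgeR FDR = 0.513), Csf1 by 0.26 ± 0.27 (edgeR FDR = 0.602) and Il34 by -0.50 ± 0.35 (edgeR FDR = 0.402). Il34 was lower in 3 of 3 mice, the only member with that direction throughout the strain. Each of the 3 calls was lost when 1 mouse was left out: Tnfsf11 and Tnfrsf11a without any of the 3, with edgeR FDRs up to 0.161 and 0.212, and Traf6 without replicate 4 or replicate 6, up to 0.159. The estimates themselves stayed between 1.36 and 1.61 for Tnfsf11, between 1.17 and 1.72 for Tnfrsf11a and between 0.44 and 0.57 for Traf6. Without the pairing of limbs the edgeR FDR was 0.0506 for Tnfsf11 and 0.0545 for Tnfrsf11a.

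Cell type markers moved with these changes in NOD/ShiLtJ. The summed level of the 8 osteoclast genes ran from 998 to 3006 CPM in control limbs and from 2613 to 8861 CPM in immobilized limbs, and 5 of 8 were called higher. The sum of 6 osteoblast genes ran from 8011 to 17590 CPM and from 26610 to 127900 CPM, with 5 of 6 called higher, and 2 of 5 osteocyte genes were called higher. Of all genes, 5.55% were called higher in that strain. The 6 muscle genes summed to between 9619 and 41920 CPM in control limbs and to between 1325 and 4642 CPM in immobilized limbs, with none of the 6 passing the threshold in that strain. No muscle gene was at 0 in any library. The part of these shifts in the changes of Tnfsf11, Tnfrsf11a and Traf6 was not tested.

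Because Tnfsf11, Tnfrsf11a and Traf6 were called together in NOD/ShiLtJ, the sequences just upstream of their starts are shown, from the RefSeq promoter table (GRCm38.p6), which matched 4 of the 8 members. Each run is the 150 bases before the annotated start, read 5′ to 3′ on the gene's strand, with capitals marking TATAA or GGGCGG (a GC box) on either strand. Tnfsf11 is at chr14:78308044-78308193 (minus strand), Tnfrsf11a at chr1:105780573-105780722 (plus strand) and Traf6 at chr2:101678270-101678419 (plus strand).
Tnfsf11: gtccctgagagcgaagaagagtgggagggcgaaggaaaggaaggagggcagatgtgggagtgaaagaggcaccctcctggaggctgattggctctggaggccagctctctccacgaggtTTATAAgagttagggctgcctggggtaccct
Tnfrsf11a: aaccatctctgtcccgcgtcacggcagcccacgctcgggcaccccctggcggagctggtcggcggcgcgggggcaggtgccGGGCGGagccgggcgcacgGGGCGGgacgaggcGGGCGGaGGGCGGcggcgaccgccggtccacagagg
Traf6: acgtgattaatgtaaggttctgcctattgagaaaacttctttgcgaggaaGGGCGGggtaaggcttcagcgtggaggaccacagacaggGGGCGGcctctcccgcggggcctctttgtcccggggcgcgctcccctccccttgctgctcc

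The 3 stretches differ in make-up. Tnfsf11 has a TATAA 30 bases before its start, with the reverse-strand match overlapping it, 3 CpG dinucleotides and 58.7% G and C. Tnfrsf11a has 24 CpG dinucleotides, 80.7% G and C and 4 copies of GGGCGG, and Traf6 has 10 CpG dinucleotides, 62.0% G and C and 2 copies of GGGCGG. In the 250 bases upstream of 32851 promoters, TATAA occurs on either strand in 22.8% and GGGCGG in 32.7%. Over the same 250 bases, 3 further motifs were searched on both strands. The NFAT core GGAAA (55.6% of promoters) was found in Tnfsf11, at 117 bases before the start, and the PU.1 core GAGGAA (23.3%) in Traf6, at 161 and 106 bases. These matches overlap none of the other motifs searched. The AP-1 site TGANTCA (6.75%) was in none of the 3. A match of letters is a description and no evidence of binding.

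In the other 7 strains no member passed the threshold by edgeR in the joint fit, and DESeq2 called none there either. At an unadjusted p below 0.05 there were 3 cases, 2 in CAST/EiJ and 1 in A/J. Over all genes the share called was 13.9% in CAST/EiJ, 3.99% in A/J, 0.0889% in PWK/PhJ, 0.00592% in each of WSB/EiJ, C57BL/6J and NZO/HlLtJ, and 0% in 129S1/SvImJ, so that at most 15 genes were called in each of 5 strains. In CAST/EiJ, a wild-derived strain of Mus musculus castaneus, the decoy Tnfrsf11b stood at 10.4, 8.35 and 9.87 CPM in control limbs and at 17.5, 39.2 and 28.4 CPM in the immobilized limbs of the same mice. The limbs did not overlap, and how many of all genes did likewise in CAST/EiJ was not counted. The log2 change of Tnfrsf11b, 1.51 ± 0.67, did not pass in the joint fit (edgeR FDR = 0.144). Fitted on the CAST/EiJ libraries alone it was 1.49 ± 0.28 (edgeR FDR = 0.00767), and Tnfrsf11a, at 0.80 ± 0.38 in the joint fit (edgeR FDR = 0.167), was 0.78 ± 0.20 (edgeR FDR = 0.0154). Both passed in that smaller fit, whose share of all genes called is not given here. The 13.9% above belongs to the joint fit. Tnfsf11 in the same mice changed by 0.12 ± 0.39 (edgeR FDR = 0.876). The osteoblast markers of CAST/EiJ summed to between 3671 and 7077 CPM in control limbs and to between 41080 and 94530 CPM in immobilized limbs, with 5 of 6 called higher, and their part in the change of Tnfrsf11b was not tested.

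Among the remaining strains, C57BL/6J had higher values in the immobilized limb of 3 of 3 mice for Tnfsf11, Tnfrsf11a, Csf1, Csf1r and Nfatc1, with log2 changes between 0.27 and 0.65, none past the threshold. In 129S1/SvImJ, Tnfrsf11a, Csf1r and Traf6 were higher in 3 of 3 mice, with log2 changes of 0.64, 0.16 and 0.21. Traf6 was also higher in 3 of 3 mice of NZO/HlLtJ and PWK/PhJ. WSB/EiJ was the only strain in which Csf1r was lower in 3 of 3 mice, from 255.1, 238.9 and 381.7 CPM to 231.6, 208.8 and 328.4 CPM, a log2 change of -0.18 ± 0.23 (edgeR FDR = 0.939). The within-mouse log2 differences were -0.14, -0.19 and -0.22. How many of all genes had 3 of 3 mice in the same direction was not counted, and these directions are not read as effects.

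Whether the limb effect differed between strains was tested directly. By edgeR's F test over the 8 limb terms, 0 of 8 members passed, with FDRs between 0.355 (Tnfsf11) and 0.636 (Nfatc1), while 2.5% of all genes passed. No member had an unadjusted p below 0.05, the lowest being 0.128 for Tnfsf11, and DESeq2 called none. Set against the mean of the other 7 strains, the NOD/ShiLtJ change of Tnfsf11 was larger by 1.30 ± 0.42 on the log2 scale (edgeR FDR = 0.119) and that of Traf6 by 0.41 ± 0.14 (edgeR FDR = 0.134). The NOD/ShiLtJ calls are therefore not shown to differ from the other strains.

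The ratio of Tnfsf11 to Tnfrsf11b counts within a library does not depend on scaling between libraries. In control limbs it ranged from 0.0790 in WSB/EiJ replicate 5 to 1.25 in C57BL/6J replicate 6, with a median of 0.389, and it was above 1 in 1 of 22 libraries. In immobilized limbs it ranged from 0.176 in CAST/EiJ replicate 4 to 1.76 in A/J replicate 2, with a median of 0.429, and it was above 1 in 4 of 24. The decoy's transcript was therefore the more abundant in most libraries of either limb. Since the exonic length of Tnfrsf11b exceeds that of Tnfsf11, a ratio per length is 1.26 times higher, and it exceeded 1 in 2 control and 6 immobilized libraries.

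Within mice the ratio was higher in the immobilized limb in 14 of 22, with differences between -1.76 and 2.03 on the log2 scale. The mean difference was 0.26 (SD 1.16, SE 0.25) and did not pass a two-sided sign-flip permutation test of the mean (p = 0.305). In C57BL/6J the ratio went from 0.585, 0.511 and 1.25 to 1.17, 0.730 and 1.45, higher in each mouse. In NOD/ShiLtJ it went from 0.379, 0.281 and 0.231 to 1.09, 0.429 and 0.232, higher in each mouse but by a trace in replicate 6, where ligand and decoy were higher by a like factor. In CAST/EiJ it went from 0.624, 0.792 and 0.489 to 0.339, 0.233 and 0.176, lower in each mouse, with no overlap between the limbs. The other strains were mixed, with mean log2 differences of 0.34 in 129S1/SvImJ, 0.57 in NZO/HlLtJ, 0.26 in PWK/PhJ and 0.51 in WSB/EiJ, and 0.91 in the A/J mouse. A permutation of strain labels, added after these values had been seen, gave no difference of the limb effect on the ratio between strains beyond the spread between mice (F = 1.07, p = 0.428).

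Between strains, the ratio in control limbs did not differ beyond the spread between mice (F = 2.01, permutation p = 0.129), although the test passed without WSB/EiJ control replicate 2 (F = 3.79, permutation p = 0.0145). WSB/EiJ was lowest, with a geometric mean of 0.208, followed by 129S1/SvImJ at 0.278 and NOD/ShiLtJ at 0.291, and C57BL/6J was highest, at 0.720. In immobilized limbs the permutation test gave F = 2.74 and p = 0.0481, with CAST/EiJ lowest at 0.240 and C57BL/6J highest at 1.08. That call was lost with a pseudocount of 5 in place of 0.5 (permutation p = 0.0521) and when any of 16 of the 24 libraries was left out, up to p = 0.108 without C57BL/6J replicate 6. CAST/EiJ thus ranked second highest in control limbs, at 0.623, and lowest in immobilized limbs.

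**Figure D2:**
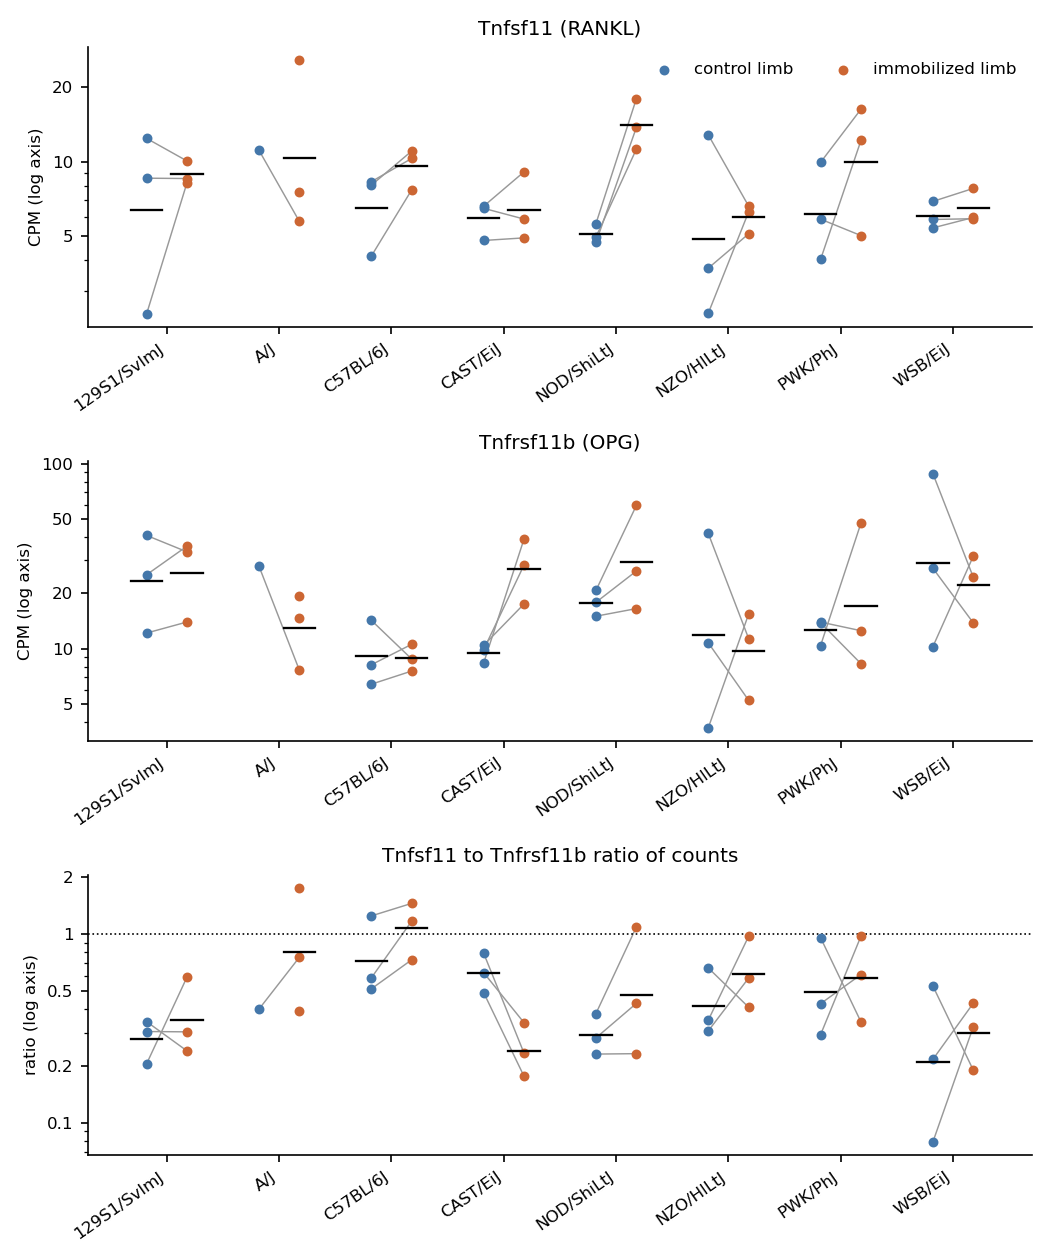
Level of Tnfsf11 and of Tnfrsf11b in CPM and the ratio of their counts (log y axes) by strain (x axis); blue points are control and orange points immobilized limbs, grey lines join the limbs of a mouse, black bars are geometric means, and the dotted line is a ratio of 1. All 3 NOD/ShiLtJ mice rise in Tnfsf11, from between 4.73 and 5.62 CPM to between 11.2 and 17.9 CPM, and all 3 CAST/EiJ mice have a lower ratio in the immobilized limb.

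Levels were also compared between strains within a limb. The member that differed was Il34, the second ligand of the M-CSF receptor, in either limb: it was highest in 129S1/SvImJ and lowest in CAST/EiJ. In control limbs 1 of 8 members passed edgeR's F test (Il34, edgeR FDR = 0.00868), where 40.6% of all genes passed, and in immobilized limbs again 1 of 8 (Il34, edgeR FDR = 0.00661), where 50.3% passed. Neither share was tested against that of all genes. Csf1 in control limbs came next (edgeR FDR = 0.0521), and the lowest F belonged to Tnfsf11 in control limbs (edgeR FDR = 0.885).

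Il34 in 129S1/SvImJ stood at 27.9, 38.8 and 20.8 CPM in control limbs and at 24.9, 19.4 and 20.8 CPM in immobilized limbs. In CAST/EiJ it stood at 4.28, 6.15 and 3.37 CPM in control limbs and at 7.64, 5.40 and 4.93 CPM in immobilized limbs. No library of CAST/EiJ reached the lowest of 129S1/SvImJ in either limb. Against the mean of the other 7 strains, control limbs of 129S1/SvImJ were higher by 1.26 ± 0.31 on the log2 scale (edgeR FDR = 0.0230, where 6.49% of all genes were called) and those of CAST/EiJ differed by -1.79 ± 0.40 (edgeR FDR = 0.0039, where 22.7% were called). In immobilized limbs the differences were 0.92 ± 0.24 for 129S1/SvImJ (edgeR FDR = 0.0187, 9.9% called) and -1.17 ± 0.30 for CAST/EiJ (edgeR FDR = 0.00774, 18.6% called). The F test for Il34 passed when any library was left out, with an edgeR FDR of at most 0.0328 in control and 0.0203 in immobilized limbs. How well the reads of each strain matched mm10 is not recorded in the counts, and its part in the low level of CAST/EiJ was not tested. The remaining strains lay between: mean control levels were 17.9 CPM in WSB/EiJ, 17.2 in the A/J library, 16.5 in NOD/ShiLtJ, 15.0 in C57BL/6J, 14.1 in NZO/HlLtJ and 8.49 in PWK/PhJ, and the ranges of neighbours in this order overlapped.

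For the other members the F test did not pass in either limb, although the ranges of single pairs of strains did not overlap. In control limbs this held for 13 of 28 pairs for Traf6, beside 14 of 28 for Il34 and 5 to 8 for the remaining members. The like count over all genes was not made. A/J has 1 control library, and a single value easily falls outside the range of another strain. These counts were not tested and are not read as strain differences. Csf1 had its highest mean control level in 129S1/SvImJ, at 139.1 ± 47.8 CPM, and its lowest in PWK/PhJ, at 51.8 ± 15.1 CPM (SD, n = 3). Traf6 ran from 36.7 ± 2.56 CPM in NOD/ShiLtJ to 48.3 ± 0.291 CPM in PWK/PhJ (SD, n = 3), 1.32 times higher, the narrowest span of means among the members. Tnfrsf11b spanned 4.396 times between CAST/EiJ, at 9.55 ± 1.07 CPM, and WSB/EiJ, at 42.0 ± 41.1 CPM, where replicate 5 stood at 88.4 CPM and the others at 10.3 and 27.2 CPM. That library also had the highest osteocyte marker sum of all, 7601 CPM. Tnfsf11 control means lay within 2.18 times of each other, with NOD/ShiLtJ lowest, and in immobilized limbs NOD/ShiLtJ was highest.

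**Figure D3:**
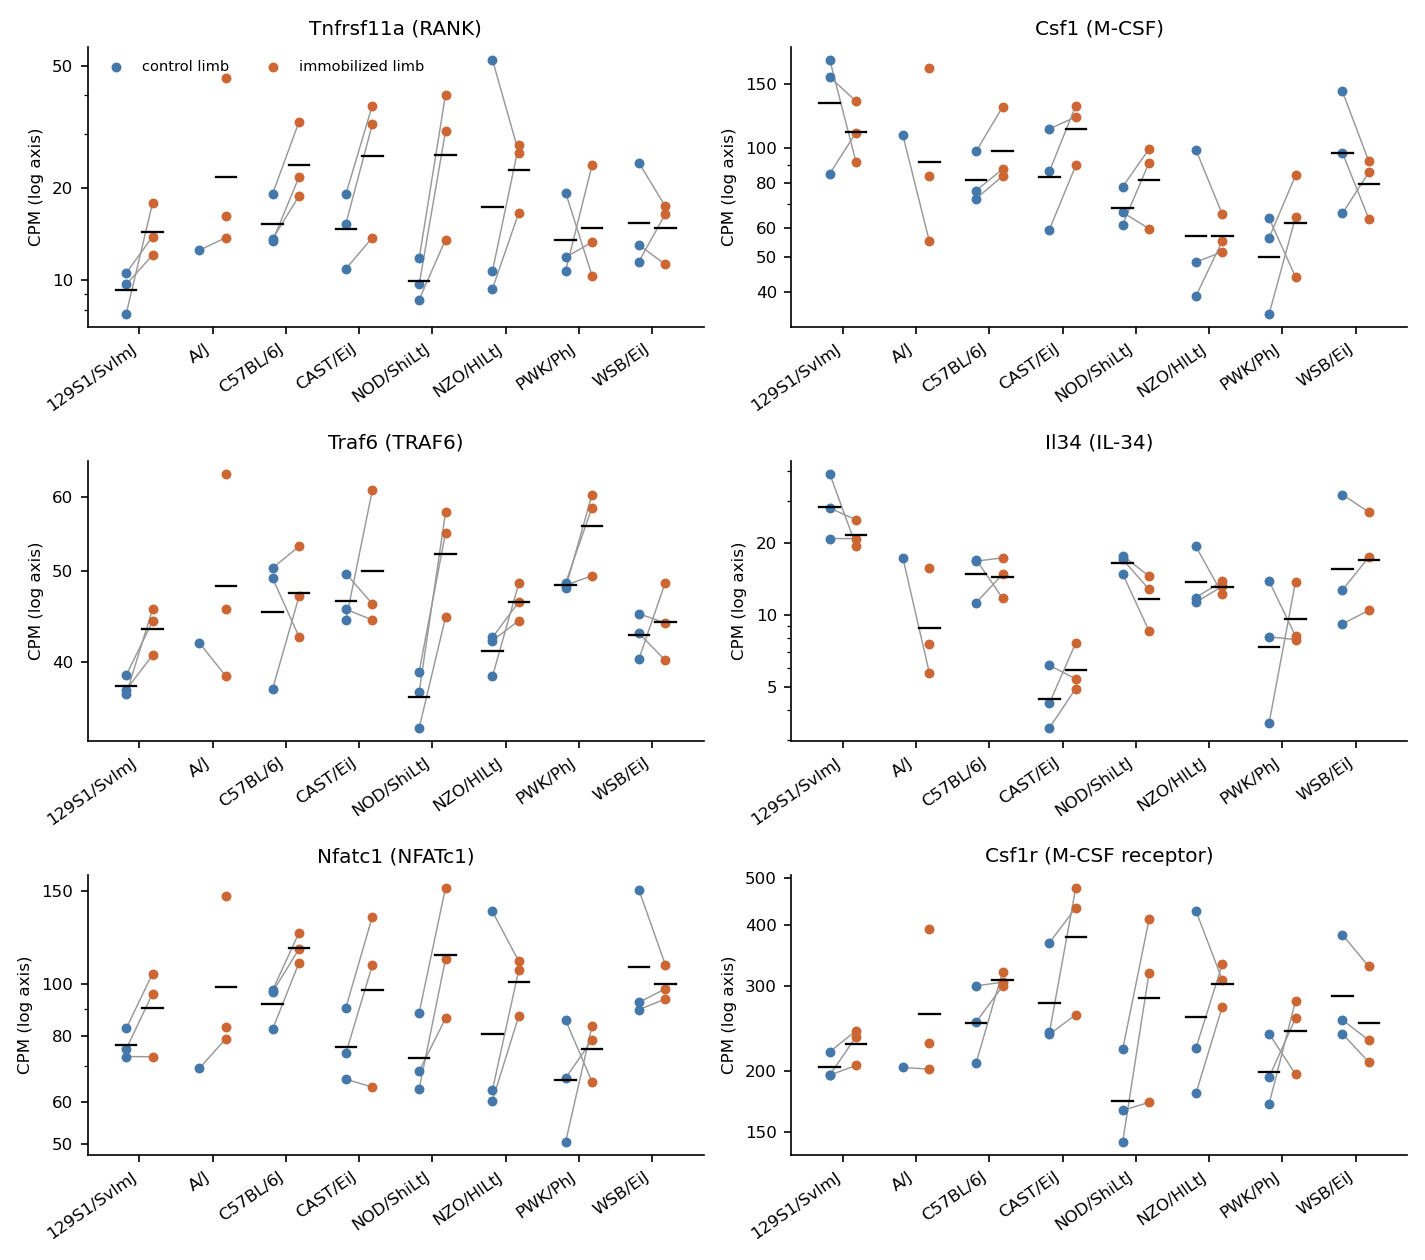
Levels in CPM (log y axes) of Tnfrsf11a, Traf6, Nfatc1, Csf1, Il34 and Csf1r by strain (x axis); blue points are control and orange points immobilized limbs, grey lines join the limbs of a mouse and black bars are geometric means. Il34 has its lowest means in CAST/EiJ, where libraries lie between 3.37 and 7.64 CPM, and NZO/HlLtJ control replicate 4 stands out for Tnfrsf11a, at 52.3 CPM.

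The members did not vary as 1 block across libraries. As a description over 46 libraries that share strains and mice, the log2 CPM of Tnfrsf11a, Csf1r and Nfatc1 correlated with each other (Pearson's r = 0.88 for Tnfrsf11a with Csf1r, 0.82 with Nfatc1, and 0.81 for Csf1r with Nfatc1). For Traf6, r was 0.50 with Tnfrsf11a, 0.44 with Csf1r and 0.31 with Nfatc1. For the ligands and the decoy, r was 0.54 for Tnfsf11 with Tnfrsf11a, 0.20 for Tnfrsf11b with Tnfrsf11a and -0.20 for Il34 with Tnfrsf11a. Tnfsf11 and Tnfrsf11b had r = 0.42, Tnfsf11 and Nfatc1 r = 0.49, and Csf1 and Il34, which share a receptor, r = 0.31. For Csf1, r was 0.54 with Tnfsf11, 0.52 with Tnfrsf11b, 0.51 with Nfatc1, 0.43 with Csf1r, 0.37 with Tnfrsf11a and 0.003 with Traf6. Within mice, Tnfrsf11a and Csf1r moved in the same direction between limbs in 20 of 22, and Tnfrsf11b and Il34 in 8 of 22.

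The genes most like each member were taken by Pearson's r over the same 46 libraries. For Tnfrsf11a they were Ocstamp (0.90), which is needed for osteoclast fusion, Gpr137b (0.89) and Csf1r (0.88). For Nfatc1 they were Gpr137b (0.89), Atp6v0d2 (0.88), a subunit of the osteoclast proton pump, and the matrix protease Mmp9 (0.86). Csf1r was closest to Slc37a2 (0.91) and the chloride transporter Clcn7 (0.88), besides Tnfrsf11a. For Tnfrsf11b the closest were the chemokine receptor Ackr3 (0.87), Lgr6 (0.87) and Amotl2 (0.86), and for Il34 the matrix gene Fbln5 (0.88), Rasgrf2 (0.84) and the complement inhibitor Serping1 (0.83). The rest had weaker matches: Rnase4 (0.73), 5730480H06Rik (0.72) and Skil (0.71) for Tnfsf11, Errfi1 (0.78), Mllt6 (0.78) and Spsb1 (0.75) for Csf1, and Eaf1 (0.71), Snx4 (0.69) and Zdhhc20 (0.68) for Traf6. Of these 24 places, 12 were also among the 3 highest by Spearman's rho.

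Other genes of the pathway were followed in 7 lists, in the mean over strains. The 10 genes that NFATc1 is known to activate in osteoclasts had 5 called higher and 0 lower, where 4.58% of all genes were called higher. Their median log2 change was 0.61, beside 0.01 over all genes. All 5 called, together with Atp6v0d2 and Calcr, are also in the list of 8 osteoclast markers, where the same 5 were called. The counts of these lists are therefore not separate results. Ctsk, the collagen-degrading protease of the osteoclast, rose from a mean of 711 CPM to 1489 CPM (log2 change 1.21 ± 0.22; edgeR FDR = 0.00639; 19 of 22 mice). The fusion genes Ocstamp (0.93 ± 0.15; edgeR FDR = 0.00355) and Dcstamp (0.90 ± 0.18; edgeR FDR = 0.00992) rose, as did the tartrate-resistant phosphatase Acp5 (0.78 ± 0.18; edgeR FDR = 0.0187) and Mmp9 (0.66 ± 0.12; edgeR FDR = 0.00512). Their calls held when any mouse was left out, and in NOD/ShiLtJ 5 of the 10 were called higher, with Ctsk at 2.62 ± 0.58 (edgeR FDR = 0.0138).

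The genes that carry the signal from receptor to nucleus were counted by list, beside 4.58% of all genes called higher and 2.86% called lower. Of 29 genes from RANK to NF-kB and AP-1, 2 were called higher and 0 lower, with a median of 0.00. They were Lgr4, a second receptor for RANKL (0.47 ± 0.14; edgeR FDR = 0.0412), and the NF-kB inhibitor Nfkbia (0.22 ± 0.06; edgeR FDR = 0.0249). Of 20 genes of immunoreceptor co-stimulation and calcium signalling, 1 was called higher and 2 lower: Siglec15, an osteoclast receptor that pairs with DAP12, at 0.79 ± 0.21 (edgeR FDR = 0.0328), the adaptor Blnk at -0.39 ± 0.10 (edgeR FDR = 0.0215) and the calcineurin subunit Ppp3cb at -0.19 ± 0.06 (edgeR FDR = 0.0468), with a list median of 0.07. Blnk is also a B cell gene, and 3 of 6 B cell markers were called lower in the same comparison. Of 19 genes of M-CSF receptor signalling, 3 were called higher and 0 lower, namely Sdc1 (0.53 ± 0.14; edgeR FDR = 0.0301), Akt1 (0.25 ± 0.05; edgeR FDR = 0.0112) and the kinase Src (0.23 ± 0.07; edgeR FDR = 0.0458), with a median of -0.01.

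Among 13 transcriptional brakes on and partners of NFATc1, 2 were called higher and 1 lower. Irf4, which lymphocytes also express, fell in 20 of 22 mice (-0.73 ± 0.13; edgeR FDR = 0.00569), from a mean of 19.1 CPM to 10.4 CPM. The inhibitors of differentiation Id1 (0.36 ± 0.10; edgeR FDR = 0.0394) and Id2 (0.36 ± 0.06; edgeR FDR = 0.00446) rose. Of 23 inducers of Tnfsf11 and their receptors that could be tested, out of 24 listed, 1 was called higher: Pth1r, the receptor for parathyroid hormone on osteoblasts, at 0.50 ± 0.14 (edgeR FDR = 0.0352). Tnf had 0.52 ± 0.19 (edgeR FDR = 0.0951). Of 14 other coupling factors and brakes tested out of 16, 1 was called higher: Sema4d, an osteoclast signal to osteoblasts, at 0.21 ± 0.06 (edgeR FDR = 0.0352), while its receptor Plxnb1 had 0.43 ± 0.14 (edgeR FDR = 0.0723). Calls of Lgr4, Ppp3cb, Src, Id1, Pth1r, Sema4d, Siglec15 and Sdc1 were lost when some of the mice were left out, in 2 (Sdc1) to 17 (Ppp3cb) of 22 cases.

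**Figure D4:**
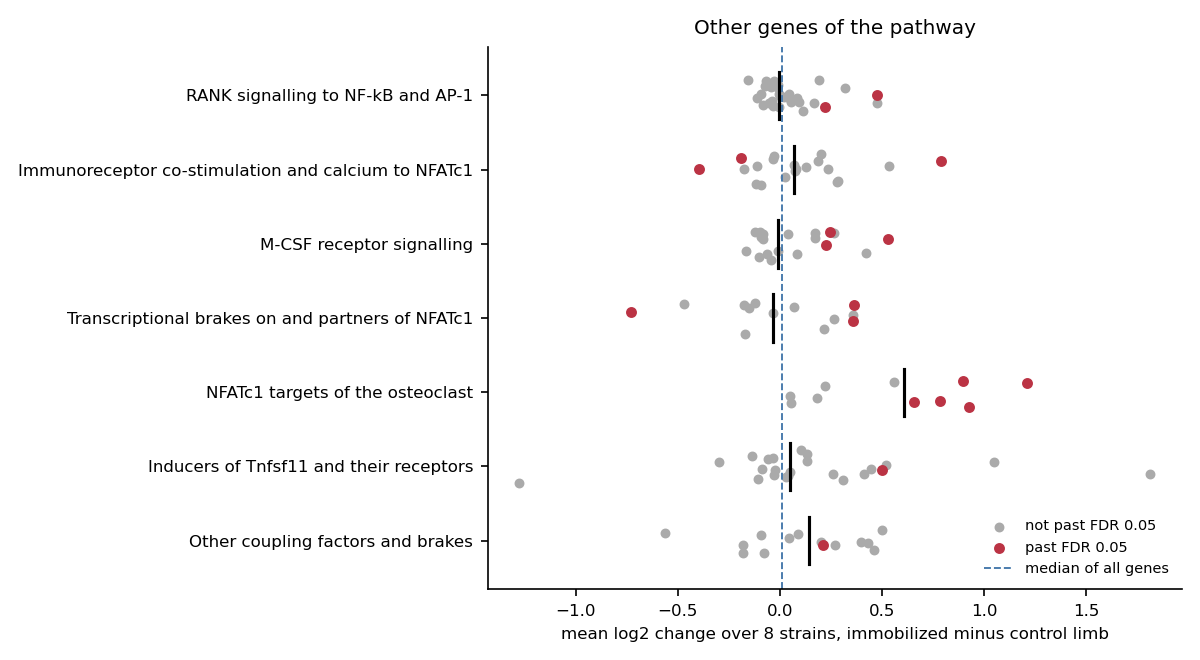
Mean log2 change between limbs over 8 strains (immobilized minus control, x axis) of each tested gene in 7 pathway lists (rows, scattered vertically for legibility); red points have an edgeR FDR below 0.05, grey points do not, black bars are list medians and the dashed line is the median of all genes (0.01). The list of NFATc1 targets has a median of 0.61 and holds 5 of the 15 genes called higher.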

How the data were processed

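Per the labels' protocols, tibial metaphysis was frozen and homogenized, RNA was extracted on columns, and stranded poly(A) libraries were made. The authors deposited raw whole-number counts, 1 value per gene and library. Of tools and builds, DESeq2, featureCounts and mm10 are named in the submitters' processing notes, with no versions; aligner, annotation and strand setting were not given in the sources used here.

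Genes were kept by edgeR's filterByExpr, scaled by TMM and fitted by robust quasi-likelihood (edgeR 4.0.16 in R 4.3.3), with mouse as a block and a separate limb term for every strain. P-values were adjusted by Benjamini-Hochberg over all genes tested, with calls at 0.05. Limbs were paired by mouse, as the series' design text states; deviations of the 2 limbs correlated with a median r of 0.0893 over 21 mice (-0.26 to 0.547). The fit has 14 residual degrees of freedom. Strains were compared within a limb without that term. Since A/J has 1 usable pair, its spread is assumed to be that of the other strains. The labels name no batch.

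Ratios are log2 of counts plus 0.5, tested with 100000 permutations. Alternatives were RLE scaling, no filter, DESeq2 1.42.0, no replicate block, all 48 libraries, a muscle covariate, each strain alone and leaving out each mouse or library. Named genes are the members, called genes of each pathway list (at most 5, filled to 2), and the 3 genes most correlated with each member. The members and lists were chosen with earlier results of these data known. No pair of libraries held identical values.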

Additional observations from a re-analysis of the deposited data

Results flagged for a closer look

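All 8 members and the ratio were searched for strains whose 3 mice all went 1 way while those of another strain went the other. Csf1r, the receptor of M-CSF and IL-34, was picked out by this search. All 3 WSB/EiJ mice had less Csf1r in the immobilized limb, while all 3 mice of 129S1/SvImJ, C57BL/6J, CAST/EiJ and NOD/ShiLtJ had more. The mean within-mouse log2 difference of these strains exceeded that of WSB/EiJ by 0.34, 0.479, 0.637 and 0.882, in that order. In the joint fit the WSB/EiJ change was -0.18 ± 0.23 (edgeR FDR = 0.939), so a lower level there is not established. The pairs of strains were not tested against each other, and the F test over all 8 strains did not pass (edgeR FDR = 0.571).

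The ratio of Tnfsf11 to Tnfrsf11b was lower in the immobilized limb of all 3 CAST/EiJ mice and higher in all 3 mice of C57BL/6J and of NOD/ShiLtJ. The gap between mean log2 differences was 1.95 for C57BL/6J and 2.09 for NOD/ShiLtJ. These gaps between pairs of strains were not tested, and the permutation test over all strains gave p = 0.428. The mean within-mouse log2 difference of Tnfsf11 was 0.114 in CAST/EiJ, 0.534 in C57BL/6J and 1.42 in NOD/ShiLtJ, and that of Tnfrsf11b was 1.48, -0.0315 and 0.736, in the same order.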

How the results depend on the processing

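In the mean over strains 1 member was called. The count was 0 with RLE scaling, without the filter on low counts and with a muscle covariate. It was also 0 without NOD/ShiLtJ, a choice made after seeing the data. The count was 2 with DESeq2 and with all 48 libraries, where 10.8% and 8.7% of all genes were called. Without the pairing (no replicate block) it was 0, and it ran from 0 to 5 when each mouse was left out, the highest without the A/J mouse. Calls per strain numbered 3, against 1 without the filter, 5 with DESeq2, 1 without the pairing and 0 to 5 when each mouse was left out. They were 0 without NOD/ShiLtJ replicate 4 or 6. In a fit of the CAST/EiJ libraries alone, Tnfrsf11b and Tnfrsf11a passed. Strain differences in levels called 1 member in each limb, against 4 with DESeq2 and 1 to 3 with each library left out. DESeq2 added Tnfrsf11b, Csf1 and Traf6 in control limbs and Tnfsf11, Tnfrsf11b and Csf1 in immobilized limbs. The share of all genes that DESeq2 called in these tests is not given here. By edgeR it was 40.6% in control and 50.3% in immobilized limbs, so the added members are not set apart from other genes.

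The ratio among strains in immobilized limbs had F = 2.69 with a pseudocount of 5 and 2.13 to 3.55 with each library left out. In control limbs F ran from 1.6 to 3.79. The mean change of Tnfrsf11b turned positive with all 48 libraries (0.0212) and with the muscle covariate (0.326), and ran from -0.132 to 0.263 with each mouse left out. That of Csf1 turned positive likewise (0.0216 and 0.0872), with a range of -0.0727 to 0.103. Neither was called in any of these. The cause of these shifts was not tested. Over all genes 1255 were called, against 730 without the filter, 1828 with DESeq2 and 233 without NOD/ShiLtJ. With each mouse left out the count ran from 756 without NZO/HlLtJ replicate 6 to 2803 without the A/J mouse, with 775 without PWK/PhJ replicate 3 and 1909 without NZO/HlLtJ replicate 4. Removing the pairing changed no call of the ratio between limbs (permutation p = 0.259). Counts of 16 to 220 for Tnfsf11 limit the precision of its levels and of the ratio.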
